A study of Homo sapiens with 16 samples.

Results

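SW480 is a human colorectal cancer cell line with a truncated APC gene, and the arrays described here compare cells of this line that had been given wild-type APC with control cells, over all genes measured. The samples were taken by their titles: 4 arrays titled SW480 APC and 4 titled SW480 siGFP, each set lettered A to D, which together make 8 of the 16 arrays of the series. Control cells stably carried an empty vector and had received a control siRNA, with GFP named in the titles. APC cells stably carried a vector that expresses wild-type APC and had received the control siRNA as well, so the siRNA transfection was common to both groups and the stable vector differed. Both were grown untreated in RPMI medium with serum, insulin, hydrocortisone and thioglycerol, and total RNA was hybridised to Affymetrix arrays. The other 8 arrays came from empty-vector cells with an siRNA against beta-catenin (4 arrays, called sibcat) or against TAZ (4 arrays, called siTAZ). They are used below only to place single results. By its title, the series is about TAZ as a mediator of Wnt signals, and this comparison asks what changes when the destruction complex gets its full-length scaffold back. The labels do not say whether the APC cells are 1 clone or a pool, nor which promoter drives APC, so an effect of APC and a property of the selected cells cannot be told apart. They call the samples biological replicates without naming separate cultures, and the p-values below reflect the spread among these arrays alone, which may be technical.

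APC is the scaffold of the destruction complex, which marks beta-catenin for degradation when no Wnt signal is present. Without full-length APC, beta-catenin accumulates, enters the nucleus and activates genes through TCF/LEF factors. In the colon this programme keeps crypt progenitor cells dividing, and loss of APC is the usual early step of colorectal cancer. TAZ (gene WWTR1) and its paralogue YAP (gene YAP1), coactivators of the TEAD factors, have been described as further clients of the same complex.

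Levels are log2 values per probe set, on which a difference of 1 is a 2-fold change, and the median over all probe sets and arrays was 5.09. A group mean below that level may be largely background, and the size of a change that ends there is uncertain. The introduced gene itself was checked first. Of the 5 probe sets for APC, 2 were higher in APC cells and 3 did not pass the test, where 24% of all probe sets passed in either direction. Both of the 2 carry the _s_at or _x_at mark, which flags probes shared between transcripts. One read 3.98, 3.97, 3.95 and 3.95 in control arrays A to D and 5.51, 5.02, 5.20 and 4.56 in APC arrays A to D, a difference of 1.11 ± 0.15 (SE, n = 4 and 4, adjusted p over all probe sets = 2.70e-05). Both of its means lay below the median level. The second rose from a mean of 6.14 to 6.55, by 0.41 ± 0.086 (adjusted p = 0.00183). The brightest probe set, used for APC among the genes, averaged 8.22 in control and 8.30 in APC cells (adjusted p = 0.709). With the 5 probe sets averaged, APC was higher by 0.35 (adjusted p = 0.000999), and on the 1 without such a mark it differed by 0.14 (adjusted p over all probe sets = 0.225). Which of these probe sets lie inside the introduced sequence was not known here. CTNNB1, which encodes beta-catenin, fell by 0.38 on the log2 scale (13.12 in control against 12.75 in APC cells, adjusted p = 0.0126), whereas in sibcat cells it averaged 10.16. Epithelial markers of the line were bright in both groups: EPCAM averaged 12.80 and 12.91, and CDH1, E-cadherin, 9.88 and 10.01, with neither past the test. The simple keratins KRT8 and KRT18 were also bright, at 12.56 and 14.20 in control cells, and slightly lower in APC cells, with differences of -0.52 and -0.33. The 3' minus 5' signal of ACTB, a measure of RNA integrity, averaged 2.08 ± 0.32 in APC and 2.05 ± 0.16 in control arrays (SD, n = 4 each, exact two-sided permutation p = 0.914).

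The difference between APC and control cells was broad. Of 19775 genes tested with limma, 3290 were higher (16.6% of those tested) and 3380 lower (17.1%) in APC cells at an adjusted p under 0.05, which is 33.7% in either direction, and the median difference over all genes was 0.01. Most called differences were small. At 1.5-fold or more there were 737 higher and 1131 lower genes, at 2-fold 297 and 493, at 8-fold 28 and 33, and at 32-fold 4 and 1. The 4 APC and 4 control arrays did not overlap for 6268 genes (31.7%). With so large a background, the share of a gene group that was called is read below against 16.6% higher and 17.1% lower. That background includes 6961 genes with both group means below the median level. With only genes of a mean above that level tested, 3192 were higher and 3254 lower. The shares among brighter genes were therefore larger, and lists of mostly bright genes face a higher background. Against sibcat cells, which share no array with the APC or control groups, 20.3% of genes were higher in APC cells and 21.7% lower, 42% in all.

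**Figure D1:**
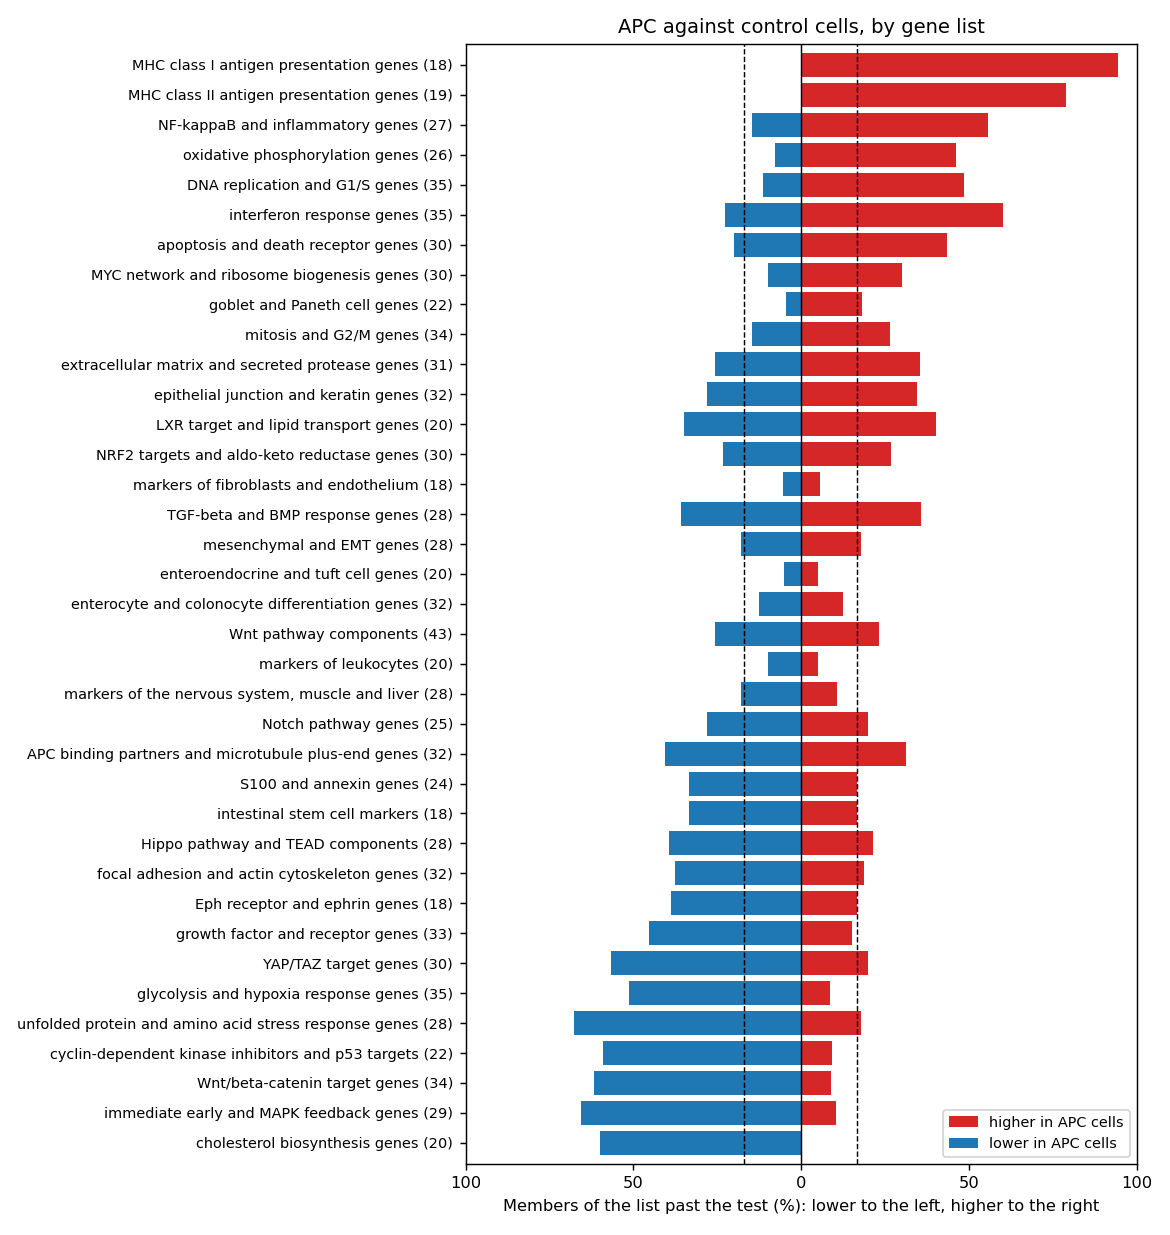
Share of each gene list that was higher (bars to the right) or lower (bars to the left) in APC than in control cells at an adjusted p under 0.05, in percent of the members analysed, with the number analysed after each name. Dashed lines mark the shares over all genes tested, 16.6% higher and 17.1% lower, and the MHC class I and class II lists reach furthest to the right.

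Differences on the array were not spread evenly over the genome. Expressed genes were put in chromosome order from RefSeq and read in 239 windows of 50 neighbours. In APC minus control, 22 windows had a median at or below -0.2 and 7 at or above 0.2, with extremes of -0.43 and 0.28. In sibcat minus control, which uses the same control arrays, there were 0 and 1, and in siTAZ minus control 0 and 0. The low windows lay on chromosomes 3 (6 windows), 7 (4), 11 (3), 12 (5) and 14 (4), and the high ones on chromosomes 10 (1), 11 (4) and 17 (2). Chromosome 14 was the clearest, with a median of -0.25 over 424 genes, of which 242 were lower and 29 higher. All 4 APC arrays showed it, with chromosome 14 medians of -0.27, -0.27, -0.21 and -0.25, against -0.024 to 0.02 in control arrays. From the first to the last gene of each, the shifted windows spanned, dim genes included, 2169 genes, 749 of them lower (22.2% of all lower genes) and 302 higher. DNA copy number was not measured, and the part of these stretches in any result was not tested. Without their genes, counts in the same fit were 15 higher of 19 for class II, 18 lower of 29 for Wnt targets and 16 lower of 26 for YAP/TAZ targets. Over all 17606 genes outside the windows, 2988 were higher and 2631 lower. CTNNB1 itself lies in such a window of chromosome 3, whose median was -0.20. Among the other genes named, AJUBA, ANLN, BIRC5, BMP4, BTRC, CADPS, CASP1, DDIT3, EGLN3, FRMD6, FZD4, KRT7, KRT8, KRT18, PFKFB4, RASSF1, TK1, TNNC1, TUBA1A, WNT5A, WNT10B, YAP1 and ZYX lie in windows that were low or high.

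**Figure D2:**
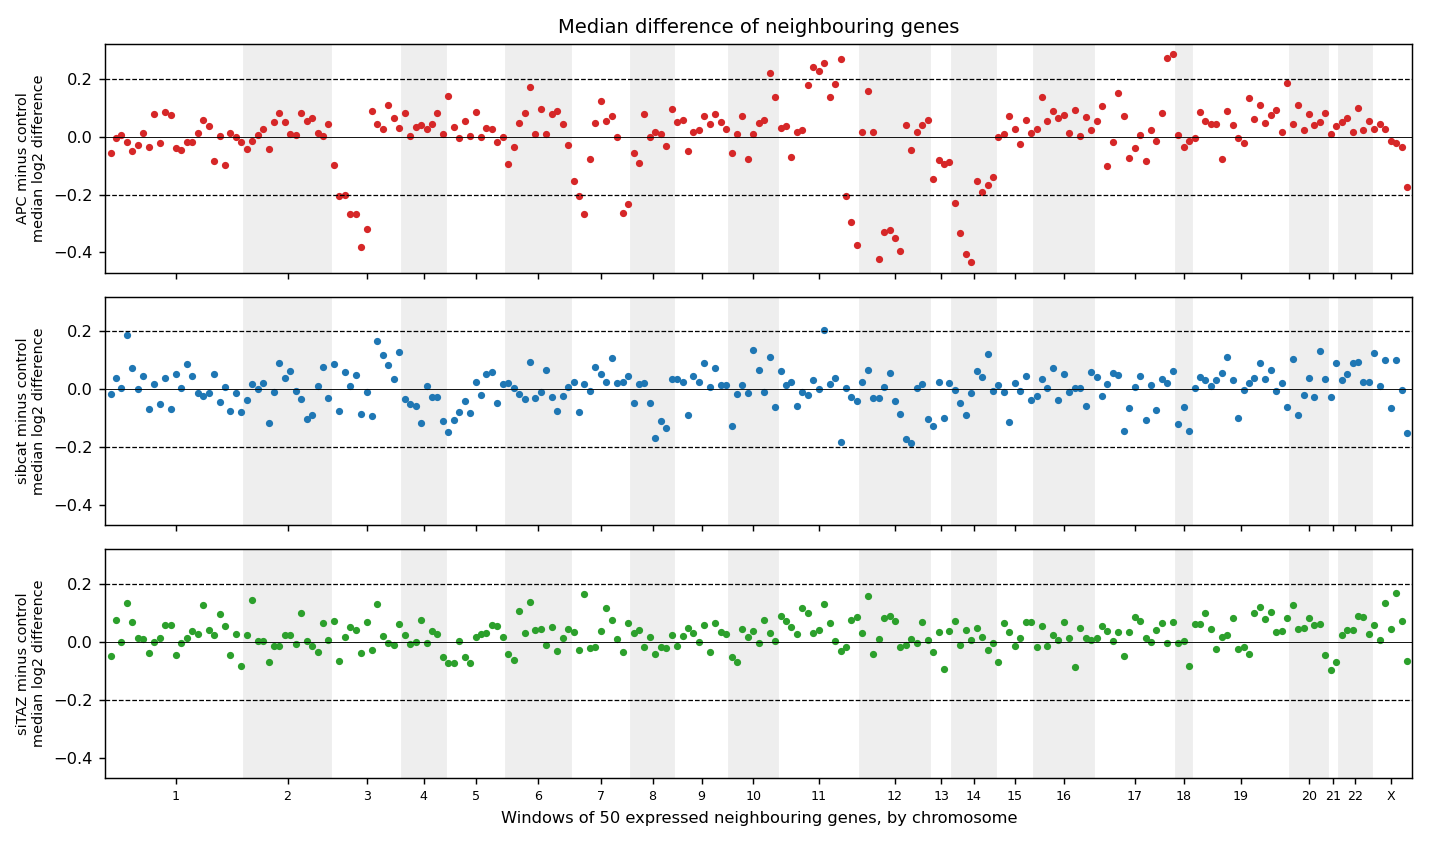
Median log2 difference from control of 239 windows of 50 expressed neighbouring genes, in chromosome order, for APC (top), sibcat (middle) and siTAZ cells (bottom), with dashed lines at -0.2 and 0.2. Runs of windows below -0.2 on chromosomes 3, 7, 11, 12 and 14 and above 0.2 on 11 and 17 appear for APC cells, and sibcat and siTAZ cells have at most 1 window beyond a line.

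MHC class II genes had the largest median rise of the lists looked at. These molecules display peptides from outside the cell to helper T cells, and outside the immune system they are usually made only after a signal such as interferon gamma. Of 19 class II pathway genes analysed, 15 were higher in APC cells and 0 lower, with a median difference of 2.37 against 0.01 over all genes. With the replicate letter as a block, 15 were higher and 1 lower.

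HLA-DRA, the alpha chain of the DR molecule, read 4.82, 5.11, 4.86 and 4.60 in control arrays A to D and 11.15, 11.13, 11.07 and 11.13 in APC arrays A to D. The groups were far apart, control cells lay at the edge of background, and the difference was 6.27 ± 0.091 (77.3-fold, adjusted p = 1.90e-17). HLA-DPA1, the alpha chain of DP, went from 4.43, 4.17, 4.27 and 4.62 to 10.84, 10.84, 11.01 and 10.76, a difference of 6.49. The beta chains HLA-DRB1 and HLA-DPB1 were higher by 4.55 and 4.23, and the DQ chains HLA-DQA1 and HLA-DQB1 by 4.03 and 2.45. Of these 6 chains, only HLA-DQB1 and HLA-DRB1 had a control mean above the median probe set level (7.43 and 5.30). HLA genes are close relatives, so their probe sets may share signal.

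Most genes that serve these chains were higher as well. CD74, the invariant chain that guards the peptide groove, read 7.25, 7.27, 6.93 and 7.02 in control and 10.41, 10.39, 10.28 and 10.01 in APC arrays, higher by 3.15. HLA-DMA and HLA-DMB, which form the peptide-loading chaperone, rose by 2.52 and 3.14. The partner chaperone genes HLA-DOA and HLA-DOB differed by 0.03 (adjusted p = 0.817) and 0.30 (adjusted p = 0.0506), neither past the test. CIITA, the coactivator that switches class II genes on, read 4.60, 4.46, 4.63 and 4.65 in control and 6.71, 7.06, 6.95 and 7.09 in APC arrays. It was higher by 2.37 ± 0.11 (adjusted p = 4.51e-11), from a control mean below the median level. CIITA binds DNA through the RFX complex, of which RFX5 rose by 0.49 and RFXAP by 0.32, while RFXANK differed by -0.075 (adjusted p = 0.263). The RFXAP call was lost without APC array C, APC array D, control array A or control array B (differences of 0.23 to 0.32). It was also lost with centred arrays (0.30), the APC and control arrays fitted alone (0.32), A and B alone (0.35) and C and D alone (0.28). The lysosomal proteases CTSS and CTSH, which trim the invariant chain and antigens, rose by 0.35 and 0.40 (CTSS not past the test with replicates A and B alone, at 0.35), and LGMN, a further such protease, differed by -0.20 (adjusted p = 0.0552, or 0.0208 with the replicate letter as a block).

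Class II genes are transcribed from promoters with a conserved W, X and Y box arrangement, of which the Y box is bound by NF-Y and the X box by RFX. RefSeq promoters (GRCh38.p14, 250 bases before to 50 after the start) were at hand for 11 of the 15 higher genes, 14 promoters in all. The Y box letters CTGATTGG, searched on both strands, were found in 4 of these (28.6%) and in 3.97% of all 35116 promoters. The X box core, searched only as the exact word TAGCAAC, was found in 0 of the 14 and in 2.85% of all. Other spellings were not searched, so these promoters may still hold an X box. The HLA-DRB1 stretch below holds cagcaac, which differs from that word in its first letter. The stretches below show the Y box in capitals in 3 class II genes that rose; a match of letters is a description and not a tested site.
HLA-DRB1: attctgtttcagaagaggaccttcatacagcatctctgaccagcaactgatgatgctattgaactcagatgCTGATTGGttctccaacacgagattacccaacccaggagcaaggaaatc
HLA-DQB1: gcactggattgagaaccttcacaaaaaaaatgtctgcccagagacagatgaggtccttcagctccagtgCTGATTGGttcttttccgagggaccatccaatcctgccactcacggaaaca
HLA-DMA: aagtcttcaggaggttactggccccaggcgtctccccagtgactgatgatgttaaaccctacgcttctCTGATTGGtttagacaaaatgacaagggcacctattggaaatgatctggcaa
All 3 lie on the minus strand of chromosome 6 in the MHC region and are written 5′ to 3′ along the gene. They are chr6:32589849-32589968 for HLA-DRB1, chr6:32666698-32666817 for HLA-DQB1 and chr6:32953128-32953247 for HLA-DMA. The box begins -49 bases, -91 bases and -82 bases from the first base of the respective gene.

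The rise was not seen at that size in the other groups. HLA-DRA averaged 5.48 in sibcat and 5.20 in siTAZ cells against 11.12 in APC cells, and CIITA 5.07 and 4.78 against 6.95. Set directly against sibcat cells, 15 of the 19 class II genes were higher in APC cells and 2 lower, with a median difference of 1.88, and HLA-DRA differed by 5.64 (adjusted p = 6.76e-17). Professional antigen-presenting cells carry the same genes, so leukocyte markers were read beside them. Of 20 such markers, 1 was higher and 2 were lower, and 13 lay below the median probe set level in both groups. Their mean level was 4.47 to 4.74 in control and 4.39 to 4.56 in APC arrays. PTPRC (CD45), the marker of all leukocytes, averaged 3.15 in control and 3.01 in APC cells.

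**Figure D3:**
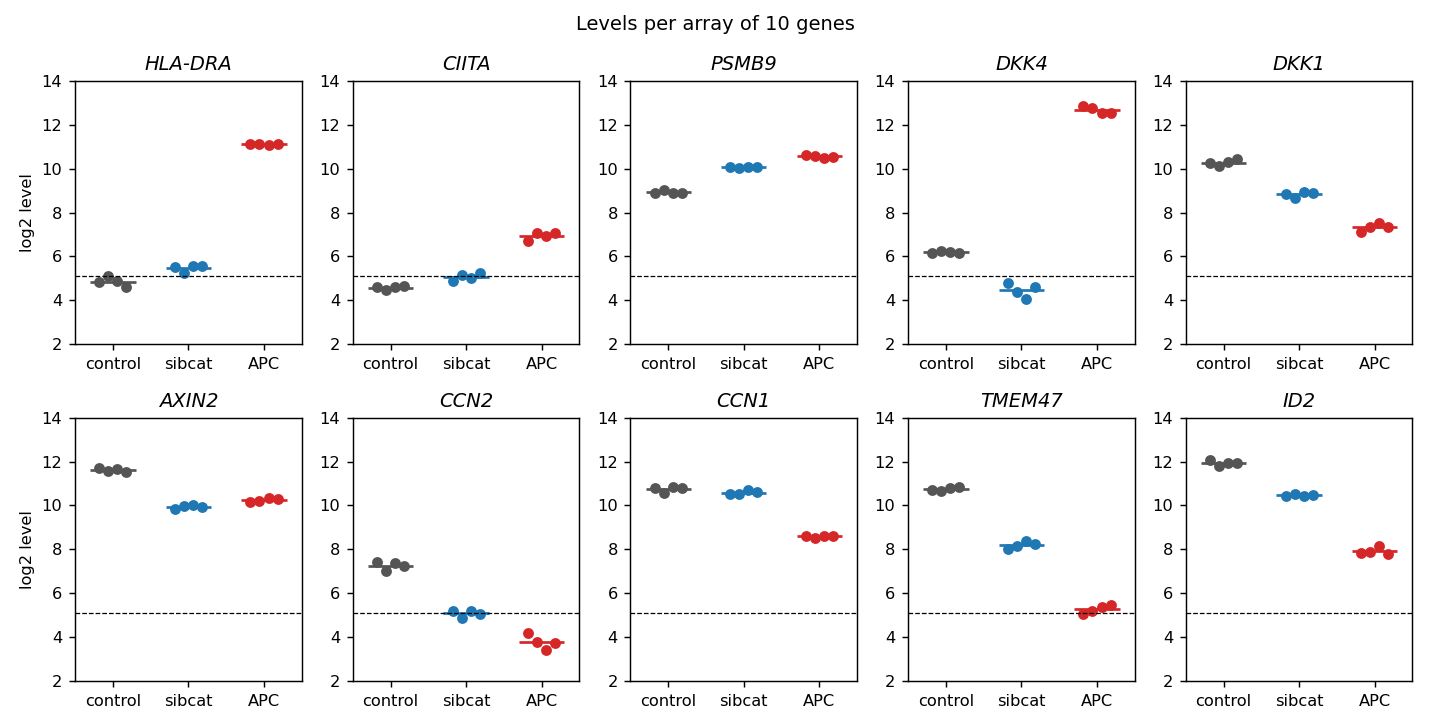
Log2 level of 10 genes in each array of the control, sibcat and APC groups (points, 4 arrays each; bars, group means; dashed line, median probe set level of 5.09). HLA-DRA, CIITA and DKK4 are high in APC cells alone, AXIN2 is lower in both sibcat and APC cells, and CCN2, TMEM47 and ID2 are lowest in APC cells.

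Class I genes, which present peptides from inside the cell to cytotoxic T cells, were also higher as a group, by less. 17 of 18 were higher and 0 lower, with a median of 0.71. The largest rises were in genes that make and trim the peptides: PSMB9 and PSMB8, subunits of the immunoproteasome, rose by 1.64 and 1.15, and ERAP2 and ERAP1, the aminopeptidases of the endoplasmic reticulum, by 1.28 and 1.20. PSMB9 read 8.89, 9.04, 8.91 and 8.88 in control and 10.63, 10.57, 10.51 and 10.55 in APC arrays, with no overlap. The peptide transporter gene TAP2 rose by 0.96, the heavy chain HLA-B by 0.82, the light chain B2M by 0.34 and NLRC5, the class I counterpart of CIITA, by 0.99 from a control mean of 4.49. Unlike class II, most of these genes did not differ from sibcat cells past the test: 6 were higher and 2 lower in APC than in sibcat cells, with a median of 0.10.

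Interferon response genes were mostly higher. Of 35, 21 were higher and 8 lower than in control, with a median of 0.47. SAMD9, an antiviral factor, read 3.77, 3.83, 3.70 and 3.90 in control and 6.95, 6.95, 7.07 and 6.96 in APC arrays, and GBP1, an interferon-induced GTPase, read 5.08, 4.78, 5.38 and 5.31 and 7.89, 8.0, 8.24 and 7.93. They were higher by 3.18 and 2.88, and IFIT3 by 1.46, but OAS2, an RNA sensor of the same response, fell by 1.29. Against sibcat cells the list did not lean upward, with 7 genes higher and 13 lower. The NF-kappaB and inflammatory list had 15 higher and 4 lower genes of 27. Here CCL2, a monocyte chemokine, rose by 2.89, C3, complement component 3, by 2.67 and LCN2, an iron-binding defence protein, by 1.74. APC and sibcat means did not differ past the test for CCL2 (11.30 and 11.15, adjusted p = 0.387) or LCN2 (11.25 and 11.23, adjusted p = 0.928). For C3 they were 10.79 and 10.31, and APC cells were higher than sibcat cells by 0.49 (adjusted p = 0.000221).

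Wnt/beta-catenin target genes were mostly lower in APC cells, with 1 large exception. Of 34 targets, 21 were lower and 3 higher, with a median of -0.39. AXIN2, a feedback scaffold and the most used readout of the pathway, read 11.71, 11.55, 11.64 and 11.53 in control and 10.15, 10.21, 10.33 and 10.29 in APC arrays. Its difference of -1.36 ± 0.066 (adjusted p = 4.67e-11) compares with a sibcat mean of 9.95. Other feedback inhibitors fell as well: APCDD1 dropped by 1.46, NKD1 dropped by 1.07 and RNF43, a ligase that removes Frizzled receptors, dropped by 1.04. CCND1, cyclin D1, fell by 1.53, from 12.10, 11.82, 12.07 and 11.99 in control to 10.51, 10.37, 10.52 and 10.44 in APC arrays, and the receptor TNFRSF19 dropped by 2.08. The secreted growth factors FGF18, BMP4 and FGF20 fell, by log2 differences of -1.79, -1.16 and -0.94. Smaller decreases were measured for the transcription factors SP5 (-0.68) and LEF1 (-0.30). LEF1 did not pass the test with its probe sets averaged (-0.13) or with replicates A and B alone (-0.26). MYC differed by 0.005 (adjusted p = 0.966), with means of 11.16 and 11.17. The stem cell receptor LGR5 averaged 3.86 and 3.80, below the median level in both groups, and differed by -0.058 (adjusted p = 0.791). With its probe sets averaged it passed the test as higher (adjusted p = 0.00885), by 0.24.

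Wnt target genes included both the largest rise of all genes and a fall in its paralogue. DKK4 and DKK1 both encode secreted Dickkopf proteins, which block the Wnt co-receptors LRP5 and LRP6, and both are known as targets of the pathway. DKK4 read 6.14, 6.23, 6.20 and 6.17 in control arrays A to D and 12.85, 12.79, 12.55 and 12.53 in APC arrays A to D, a 90.2-fold rise (6.5 ± 0.12, adjusted p = 2.88e-16). DKK1 read 10.28, 10.12, 10.31 and 10.43 in control and 7.11, 7.34, 7.52 and 7.33 in APC arrays and fell by 2.96 ± 0.082 (adjusted p = 3.79e-14). In sibcat cells both were below control, at 4.47 for DKK4 and 8.83 for DKK1, so APC and sibcat cells differed by 8.21 for DKK4 (adjusted p = 2.46e-17). The sibcat mean of DKK4 lay below the median level, so the size of that difference is uncertain. The other targets that rose were PROX1 (0.41) and the adhesion receptor CD44 (0.26). PROX1 averaged 5.56 in sibcat cells against 8.61 in APC cells. Its rise over control was 0.32 and not past the test with replicates A and B alone.

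Direct comparison showed where APC cells and cells with less beta-catenin mRNA parted. Of the 34 targets, 14 were higher and 8 lower in APC than in sibcat cells, and the median difference was 0.056. CEMIP, NKD1, SP5 and FGF20 lay between control and sibcat cells: CEMIP averaged 9.69 in control, 8.38 in APC and 5.87 in sibcat cells, and SP5 9.66, 8.98 and 7.38. APCDD1 and CCND1 averaged 10.58 and 10.46 in APC and 10.63 and 10.55 in sibcat cells, with adjusted p-values of the difference of 0.473 and 0.263. For DKK1 the order turned, with APC cells lower than sibcat cells, at a difference of -1.50 (adjusted p = 1.79e-10).

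**Figure D4:**
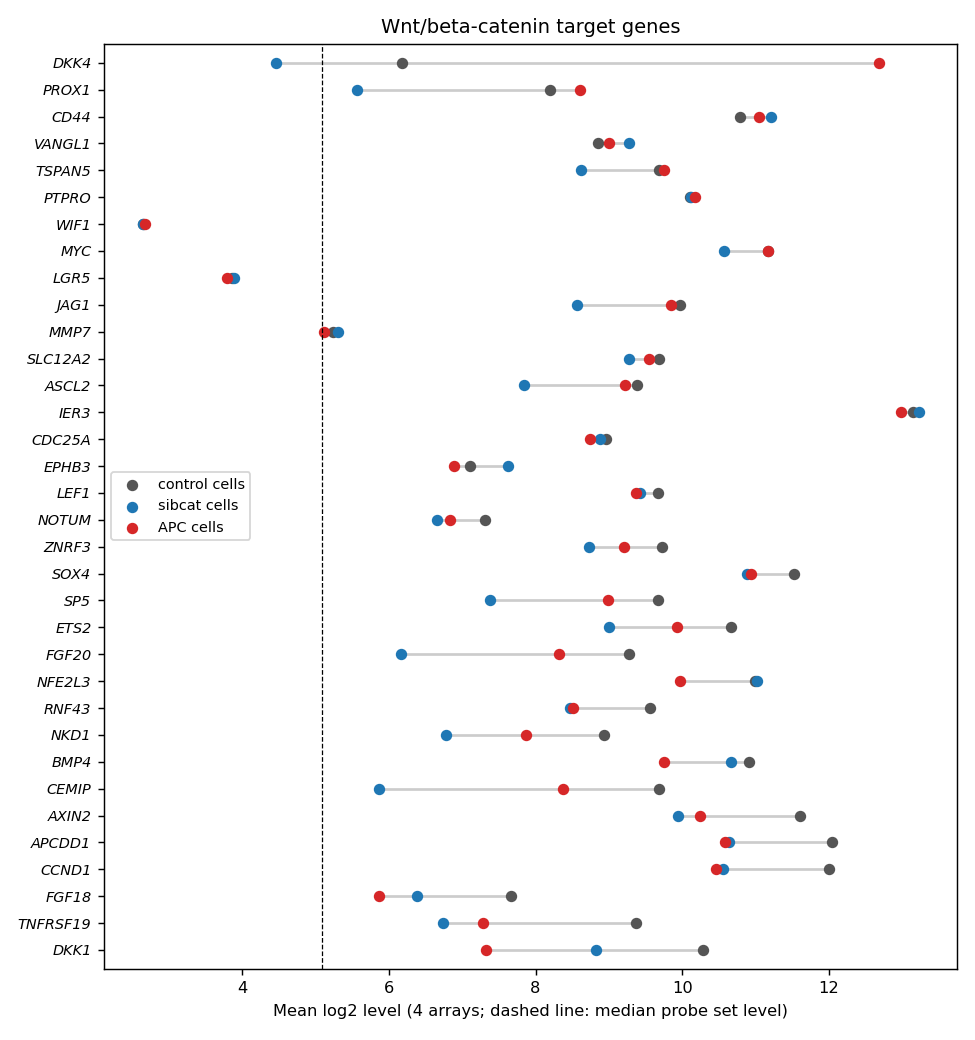
Mean log2 level of the 34 Wnt/beta-catenin target genes in control, sibcat and APC cells (4 arrays each), ordered by the APC minus control difference. DKK4 stands at the top with APC cells far to the right of both other groups, and DKK1 at the bottom with APC cells furthest to the left.

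TCF/LEF factors bind a short word that begins with CTTTG. The word CTTTG followed by AA, AT, TA or TT was found on either strand in 3 of 18 promoters of the lower targets that were at hand (16.7%) and in 13.8% of all. DKK1, which fell, holds 2 of them, shown in capitals on the plus strand of chromosome 10 at chr10:52314161-52314240, where they begin -95 and -76 bases from the start.
DKK1: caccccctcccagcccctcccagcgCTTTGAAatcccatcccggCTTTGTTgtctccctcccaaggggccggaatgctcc

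Components of the Wnt pathway moved both ways. Of 43, 10 were higher and 11 lower. Of the Frizzled receptors analysed, FZD4 rose by 0.35 and FZD6 fell by 0.27, neither past the test with replicates A and B alone (0.21 and -0.19). FZD2 and FZD3 differed by -0.22 and -0.14 and did not pass the test (adjusted p = 0.0828 and 0.0692), but did as lower with the replicate letter as a block (adjusted p = 0.00627 and 0.0234). FZD1, FZD5 and FZD7 rose by 0.90, 0.78 and 0.71, and the co-receptor LRP5 by 0.61. TCF7L2, the main TCF factor of colon epithelium, rose by 0.90, and CTNNBIP1, which keeps beta-catenin off TCF factors, by 0.79. Of the ligands analysed, WNT10B did not pass the test (-0.10, adjusted p = 0.549) and the other 3 fell: WNT5A dropped by 0.76, WNT6 dropped by 1.21 and WNT11 dropped by 1.53, the last to a mean of 4.44, below the median level. A WNT6 probe set without the _s_at or _x_at mark differed by only -0.15 and did not pass the test. WLS, which carries Wnt ligands to the cell surface, fell by 0.61. Within the destruction complex, the kinase GSK3B fell by 0.22 and the ligase subunit BTRC rose by 0.39. The GSK3B call was lost with its probe sets averaged (-0.054) or with replicates A and B alone (-0.10), and the BTRC call without _x_at and _s_at probe sets (0.23). The scaffold AXIN1 differed by 0.022 (adjusted p = 0.880) and the kinases GSK3A and CSNK1A1 by 0.11 and -0.087 (adjusted p = 0.437 and 0.225).

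YAP/TAZ target genes were more often lower than higher in APC cells. Of 30, 17 were lower and 6 higher, with a median of -0.39. CCN2, which encodes the matricellular growth factor CTGF and is a standard readout of YAP and TAZ, read 7.43, 7.01, 7.37 and 7.23 in control and 4.18, 3.79, 3.39 and 3.73 in APC arrays. The difference of -3.49 ± 0.13 (adjusted p = 1.73e-12) ended below the median level, so its size is uncertain. CCN1, the closest relative of CCN2 (also CYR61), read 10.78, 10.57, 10.83 and 10.78 in control and 8.61, 8.53, 8.63 and 8.62 in APC arrays and fell by 2.14 at levels well above background. ANKRD1, a nuclear cofactor, fell by 2.32, and IGFBP3, which binds insulin-like growth factors, dropped by 2.59. AJUBA, AMOTL2 and LATS2, which are targets and restrain YAP or the Hippo kinases in turn, fell, with differences of -2.23, -1.86 and -1.27. The vasoconstrictor peptide gene EDN1 fell by 1.39. Members that rose included TK1 (0.88), the cytokine TGFB2 (0.78) and the membrane protein MYOF (0.57). TK1, thymidine kinase, is also a gene of DNA replication.

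WWTR1 mRNA was not lower beside these targets. On its brightest probe set WWTR1 was higher in APC cells by 0.72, at 10.26, 10.13, 10.33 and 10.39 in control and 10.90, 11.01, 11.06 and 11.04 in APC arrays, while YAP1 fell by 0.76, from 11.39, 11.14, 11.45 and 11.45 to 10.49, 10.55, 10.65 and 10.69. A second WWTR1 probe set rose by 0.84 and the remaining one, with the _s_at mark, differed by 0.068 (adjusted p over all probe sets = 0.786). The arrays measure mRNA and say nothing about the amount of TAZ or YAP protein. Against siTAZ cells, in which WWTR1 averaged 6.91, CCN2 was lower in APC cells, at a difference of -1.0 (adjusted p = 7.17e-06). Both CCN2 means, 3.77 in APC and 4.77 in siTAZ cells, lay below the median level, so that difference may be largely background. CCN1 and ANKRD1, which were brighter, differed by -1.17 and -1.48. Of the whole list, 17 genes were lower and 6 higher in APC than in siTAZ cells (over all genes, 22.4% lower and 19.9% higher, 42.4% in all). Against sibcat cells, 18 were lower and 4 higher. Among Hippo and TEAD components, 6 of 28 rose and 11 fell, with a median of -0.071. Outside the shifted windows, in which RASSF1 and FRMD6 lie, 5 of 22 rose and 7 fell, with a median of -0.006. The scaffold RASSF1 fell by 1.04, FRMD6, an upstream regulator, dropped by 0.89 and the kinase MAP4K4 rose by 0.84.

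TEAD factors bind the word GGAATG. It was found on either strand in 8 of 15 promoters of the lower targets at hand (53.3%), which came from 11 of the 17 genes, and in 14% of all promoters. The same word was in 28.6% of the promoters of the higher class II genes and 22.2% of those of the lower Wnt targets. The stretches of CCN2 and ANKRD1 show the word in capitals, at 3 places in CCN2 and 2 in ANKRD1.
CCN2: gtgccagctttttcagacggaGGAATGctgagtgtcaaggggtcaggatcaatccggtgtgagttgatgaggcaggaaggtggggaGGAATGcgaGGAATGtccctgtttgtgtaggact
ANKRD1: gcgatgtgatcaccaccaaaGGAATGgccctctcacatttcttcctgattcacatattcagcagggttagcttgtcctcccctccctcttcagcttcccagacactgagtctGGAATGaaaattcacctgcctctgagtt
CCN2 is shown at chr6:131951443-131951562 on the minus strand, with the word beginning -169, -104 and -95 bases from the start. ANKRD1 is shown at chr10:90921188-90921327 on the minus strand, with the word beginning -220 and -128 bases from the start.

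Beyond class II genes and DKK4, the largest rises were in genes that control cells hardly expressed. DEFA5, the Paneth cell alpha-defensin, read 4.24, 4.35, 3.92 and 3.86 in control and 9.27, 9.07, 9.28 and 9.07 in APC arrays, and its neighbour DEFA6 rose by 0.57. DNER, a neuronal Notch ligand, read 3.04, 2.99, 2.76 and 2.61 in control and 7.65, 7.75, 8.13 and 7.77 in APC arrays. CDH11, a cadherin of mesenchymal cells, rose by 4.12, the antisense RNA AFAP1-AS1 by 4.29 and the adhesion molecule ALCAM by 3.64. These 5 genes had control means below the median level, and their sibcat means lay between 2.60 and 4.16. ALOX5AP, which hands arachidonic acid to the leukotriene pathway, differed in that respect. It read 6.15, 5.82, 6.45 and 6.01 in control and 10.33, 10.22, 10.39 and 10.36 in APC arrays and averaged 8.82 in sibcat cells. NTN4, a netrin of the basement membrane, was of the same kind, with means of 3.67 in control, 7.67 in APC and 6.87 in sibcat cells.

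Most of the largest falls ended near background. TMEM47, a membrane protein of cell junctions, read 10.72, 10.66, 10.78 and 10.85 in control and 5.03, 5.19, 5.38 and 5.44 in APC arrays and fell by 5.49 ± 0.088 (adjusted p = 4.74e-17). CTHRC1, a secreted glycoprotein linked to collagen, read 11.55, 11.42, 11.70 and 11.73 and 6.43, 6.62, 6.87 and 6.87, with means of 11.36 in sibcat and 11.29 in siTAZ cells. It fell by 4.90 from among the brighter genes of the array. The neurotrophin receptor NTRK2 fell by 4.64, FGF13 dropped by 4.46, the adhesion receptor ADGRG2 dropped by 4.41, CADPS, a factor of secretory vesicle release, dropped by 4.64, the stratified-epithelium keratin KRT13 dropped by 4.03 and the troponin gene TNNC1 dropped by 4.15. Each of these 6 reached an APC mean below the median level, and their sibcat means were 7.01 to 8.12. OLR1, a scavenger receptor for oxidised lipoprotein, fell by 4.46, and here the sibcat mean of 3.44 was as low as that of APC cells, 3.19. ID2, a dominant-negative helix-loop-helix factor, read 12.09, 11.79, 11.92 and 11.95 in control and 7.85, 7.89, 8.16 and 7.80 in APC arrays and fell by 4.01. ASB4 fell by 3.83, from 11.63 to 7.80.

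Against sibcat cells, the 5 genes highest in APC cells were again DKK4, HLA-DPA1, HLA-DRA, DEFA5 and DNER, with differences of 8.21, 5.88, 5.64, 5.50 and 5.22. All of these but HLA-DRA had a sibcat mean below the median level, so the sizes are uncertain. The 5 lowest were CTHRC1 (-4.66), QPRT (-4.00), KRT13 (-3.80), CADPS (-3.74) and SPARC (-3.74). QPRT, an enzyme of NAD synthesis, was also lower than control and fell by 3.10. SPARC, a matricellular protein, averaged 9.34 in sibcat, 5.6 in APC and 6.07 in control cells.

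Markers of intestinal cell types did not move together. Most were dim: 20 of 32 enterocyte genes, 15 of 22 goblet and Paneth genes and 14 of 20 enteroendocrine and tuft genes lay below the median level in both groups. Of enterocyte genes, 4 rose and 4 fell. KLF4, a factor of differentiating epithelium, rose by 0.69 and CEACAM1, an adhesion molecule, by 1.17, while KLF5, a factor of dividing crypt cells, fell by 1.25. Of goblet and Paneth genes, 4 rose, with the mucin MUC1 at 1.24 beside the defensins, and 1 fell. Among enteroendocrine and tuft genes the tuft cell kinase DCLK1 fell by 2.19, from 10.20 to 8.01, with means of 7.09 in sibcat and 10.50 in siTAZ cells. Stem cell markers had 3 higher and 6 lower of 18.

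Epithelial and mesenchymal genes also split. Of 32 junction and keratin genes, 11 rose and 9 fell. EHF, an epithelial ETS factor, read 8.63, 8.47, 8.61 and 8.65 in control and 12.05, 12.07, 12 and 12.01 in APC arrays, a rise of 3.44. The desmosomal cadherin DSC2 rose by 1.05, whereas KRT23 fell by 2.33, from 12.27 to 9.94. KRT7 rose by 2.86 on its brightest probe set, but a probe set without the _s_at or _x_at mark differed by 0.15 and did not pass the test. Of 28 mesenchymal genes, 5 rose and 5 fell, close to the shares over all genes of 16.6% higher and 17.1% lower. Beside CDH11, LOX, which crosslinks collagen, rose by 2.21 and ended near the median level. PRRX1, a mesenchymal homeobox factor, fell by 3.54 to below it and ACTA2, smooth muscle actin, dropped by 1.18. Focal adhesion and actin genes had 12 lower and 6 higher of 32, with a fall in ZYX, zyxin (-0.73), and a rise in the integrin ITGAV (0.66). Matrix and protease genes had 11 higher and 8 lower of 31. The proteases MMP9 and PLAU rose by 2.33 and 2.21 and the collagen COL6A1 by 2.14, and all 3 were high in sibcat cells too, at 9.06, 10.44 and 9.84. Among known partners of APC and genes of microtubules, 10 of 32 rose and 13 fell. The phosphatase PTPN13, which binds APC, rose by 1.61 from a dim 4.12, and the tubulins TUBA1A and TUBB2B and the microtubule-associated MAP1B fell, with differences of -1.53, -1.03 and -1.24.

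TGF-beta and BMP response genes had 10 higher and 10 lower of 28. ID1, a paralogue of ID2 that also responds to BMP, read 7.63, 7.72, 7.68 and 7.73 in control and 10.29, 10.23, 10.44 and 10.28 in APC arrays, a rise of 2.62, while ID2 fell. The BMP antagonist NOG rose by 1.75 from a dim 3.94, BMP4 fell, and LTBP2, a matrix protein related to TGF-beta binding proteins, fell by 2.42.

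Genes of DNA replication and mitosis had small median differences from control and larger ones from sibcat cells. Of 35 DNA replication genes, 17 were higher and 4 lower than control, with a median of 0.14. With replicates A and B alone, 9 were higher, where over all genes the higher count fell from 3290 to 1935. The helicase subunit MCM5 rose by 0.56, and the cyclin CCNE2 fell by 0.63. Against sibcat cells, 34 were higher and 0 lower, with a median of 0.75. Mitosis genes gave 9 higher and 5 lower of 34 against control and 30 and 1 against sibcat cells. No gene of the replication or mitosis list lay below the median level in both groups, so both lists face the higher background of bright genes. BIRC5, survivin, was higher than control by 0.48 and ANLN, a protein of the cleavage furrow, lower (-0.56). The MYC and ribosome biogenesis list had 9 higher and 3 lower of 30 against control, and 22 and 3 against sibcat cells. CDK inhibitors and p53 targets were mostly lower than control, 13 of 22 with 2 higher. CDKN1C, the inhibitor p57, fell by 1.27 and the stress gene GADD45B dropped by 2.11, whereas CDKN2B, the inhibitor p15, rose by 1.11.

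More than the background share of sterol synthesis genes fell. Of 20, 12 were lower and 0 higher, with a median of -0.50. INSIG1, the sterol sensor that holds back SREBP, read 10.19, 9.99, 10.39 and 10.38 in control and 8.72, 8.72, 9.01 and 8.82 in APC arrays. It fell by 1.42, the sterol carrier STARD4 dropped by 1.84, and the synthesis enzymes MSMO1 and IDI1 were at -1.16 and -1.04. The sterol exporters ABCA1 and ABCG1, targets of LXR, went the other way: ABCA1 read 4.24, 3.98, 4.71 and 4.28 in control and 7.35, 7.49, 7.66 and 7.91 in APC arrays, a rise of 3.30, and ABCG1 rose by 1.85. Both were high in sibcat cells as well, at 7.25 and 7.87. The lipoprotein receptor VLDLR fell by 1.92. Of the whole LXR and lipid transport list, 8 of 20 rose and 7 fell.

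Glycolysis and hypoxia response genes were lower in 18 and higher in 3 of 35, with a median of -0.15. Of the lower members known to be induced by low oxygen, SLC2A3, a glucose transporter, fell by 2.37, NDRG1 dropped by 2.24, the prolyl hydroxylase EGLN3 dropped by 1.96 and PFKFB4, a regulator of glycolysis, dropped by 1.23. NDRG1 read 11.39, 11.48, 11.47 and 11.29 in control and 9.20, 9.19, 9.11 and 9.17 in APC arrays. Against sibcat cells 31 were lower and 2 higher. EGLN3 and PFKFB4 lie in shifted windows, and outside these the count was 15 lower and 3 higher of 32. Oxidative phosphorylation genes had 12 higher and 2 lower of 26, by small amounts, with the complex III subunit CYC1 0.34 higher. With the APC and control arrays fitted alone, 7 of them were higher, where over all genes the higher count fell from 3290 to 2911.

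Stress and mitogen response genes were more often lower than higher. In the unfolded protein and amino acid stress list, 19 of 28 fell and 5 rose, with a median of -0.45. The stress transcription factors DDIT3 (CHOP) and ATF3 fell, with differences of -1.61 and -1.35, and TRIB3, which damps the response, dropped by 0.92. Of immediate early and MAPK feedback genes, 19 of 29 fell and 3 rose. FOS, part of the AP-1 factor, read 8.65, 8.58, 8.65 and 8.70 in control and 6.30, 6.14, 6.26 and 6.30 in APC arrays and fell by 2.40. EGR3 fell by 2.39, FOSL2 dropped by 1.52 and DUSP6, the phosphatase that switches ERK off, dropped by 1.42. Growth factors and receptors had 15 lower and 5 higher of 33. IGFBP7, a secreted binding protein, read 12.13, 12.20, 11.99 and 12.01 in control and 8.65, 8.81, 8.66 and 8.80 in APC arrays and fell by 3.35, and PDGFA, a platelet-derived growth factor chain, fell by 2.15. Sibcat means of IGFBP7 and PDGFA, 12.14 and 10.94, were at or above those of control cells.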

How the data were processed

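The values are log2 expression levels per probe set and array that the authors deposited in 1 table, made with RMA per the submitters' processing notes, without a version. RMA corrects background, normalises arrays to a common distribution and summarises probes, which hides any shift of all RNA together. The base was read from the values. Of 54675 probe sets, 41097 were paired with 1 gene, and each of 19775 genes was represented by its probe set with the highest mean over the 16 arrays. A linear model over all 16 arrays, with no block and no filter, was fitted by lmFit and eBayes of limma 3.58.1 in R 4.3.3. The code was tried on simulated data with independent noise. Such data lack the grouping of arrays given below, so they cannot show how that grouping affects the p-values. Adjusted p-values for genes are limma's after Benjamini-Hochberg adjustment over all genes, two-sided, called at 0.05. Arrays have no count depth, so their number, 4 per group, limits precision. Same-letter APC and control arrays deviated together (correlations of 0.13, 0.34, 0.37 and 0.16 for A to D), but APC arrays A and D correlated best with control arrays B and C. Correlations were 0.03 or more within A and B or within C and D, and -0.02 or less between these sets. The arrays thus grouped as A and B against C and D rather than by single letters. The replicate block among the alternatives took the letters as pairs, and the reported p-values come from the fit without a block. The rule for named genes took APC, CTNNB1, DKK4, HLA-DRA, CCN2, the 12 largest rises and falls, up to 4 of each of 37 lists, any member of 6 lists and the 5 highest and lowest against sibcat. PTPRC and the epithelial markers were named beyond it. Members and lists were chosen with earlier results of these data known. Alternatives covered the block, samples, filters, probe sets, centring, eBayes options and left-out arrays. Figures used matplotlib 3.10.9.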

Additional observations from a re-analysis of the deposited data

Results flagged for a closer look

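In 17 of 356 groups of 4 arrays (178 named genes, APC and control cells), 1 array stood apart from the other 3, by a gap over 0.829 of the group's range (Dixon's test at the 95% level). Chance gives about 1 in 20 such groups, and no array held more than 4 of them. The array that stood apart was the highest for 10 groups. ACTA2 read 6.84 on APC array A against 6.52 to 6.56 and ALCAM read 7.77 on APC array D against 7.53 to 7.56. CYC1 read 10.52 on control array A against 10.32 to 10.35 and HLA-DMA read 6.30 on control array A against 5.94 to 5.97. LATS2 read 9.88 on control array D against 9.71 to 9.73 and MYOF read 10.64 on control array A against 10.45 to 10.47. RFXANK read 8.80 on APC array C against 8.68 to 8.70 and RFXANK read 8.85 on control array D against 8.77 to 8.78. SAMD9 read 7.07 on APC array C against 6.95 to 6.96 and TK1 read 9.09 on control array A against 8.97 to 8.98. It was the lowest for the other 7. DDIT3 read 8.45 on control array D against 8.69 to 8.70 and EFNA5 read 6.54 on control array B against 7.01 to 7.06. ERAP1 read 7.97 on control array B against 8.28 to 8.31 and FGF20 read 8.26 on APC array D against 8.34 to 8.35. HLA-DQB1 read 9.67 on APC array D against 9.93 to 9.97 and PTPN13 read 5.13 on APC array A against 5.90 to 6.01. WNT5A read 11.40 on control array B against 11.69 to 11.71. The widest of these gaps was that of PTPN13 on APC array A, which stayed above all 4 control arrays.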

How the results depend on the processing

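Precision was limited by 4 arrays per group. The counts over all genes changed by over 1.5 times under 1 alternative, chosen after seeing the data: with replicates A and B alone, 1935 genes were higher and 2248 lower. Leaving out 1 array gave 2993 to 3379 higher and 3097 to 3436 lower. With the replicate block, which pairs arrays by letter, they were 3811 and 3806, and of the 178 genes named the block changed the call of 3, LGMN, FZD2 and FZD3, which became lower. Without the shifted windows they were 2968 and 2601. Of the genes named, 155 kept direction and call in all 20 alternatives that could be run for them. Without _x_at and _s_at probe sets, which leaves 17100 genes and shorter lists, the lower counts were 7 of 14 for cholesterol synthesis, 11 of 22 for glycolysis and hypoxia, 12 of 20 for unfolded protein and amino acid stress, 11 of 24 for immediate early genes and 7 of 16 for CDK inhibitors and p53 targets.

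Reversals were confined to 6 named genes, all of them not past the test in the reported fit. LGR5 was 0.24 with probe sets averaged, where it passed the test (adjusted p = 0.00885), and PTPRC 0.052 without _x_at and _s_at probe sets. MYC was -0.01 with centred arrays, AXIN1 -0.015 with A and B alone, and APC -0.015 and HLA-DOA -0.025 with C and D alone. Leaving out 1 array, the differences ran from -0.026 to 0.10 for AXIN1, -0.023 to 0.063 for HLA-DOA, -0.036 to 0.041 for MYC, -0.075 to 0.17 for APC and -0.13 to 0.04 for LGR5. The cause was not tested.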

Other observations

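Several gene groups not described above were read in the same way against the background of 16.6% higher and 17.1% lower. Lists of mostly bright genes face a higher background, among them the Notch list, where only 1 of 25 genes lay below the median level in both groups. Eph receptors and ephrins had 3 higher and 7 lower genes of 18: the ligands EFNA5 and EFNB2 rose by 1.57 and 1.55, and the receptor EPHA4 fell by 1.15. Notch pathway genes had 5 higher and 7 lower of 25, with a fall in the effector HEY2 (-1.58) and a rise in the glycosyltransferase LFNG (0.84). Apoptosis genes had 13 higher and 6 lower of 30. Here the death ligand TNFSF10 (TRAIL) rose by 1.13 and the inflammatory caspase CASP1 by 1.46, while FASLG fell by 1.54. NRF2 targets and aldo-keto reductases had 8 higher and 7 lower of 30. MGST1, a glutathione transferase, read 8.63, 8.62, 8.51 and 8.68 in control and 11.21, 11.14, 11.07 and 11.02 in APC arrays, a rise of 2.5, and averaged 8.40 in sibcat cells. S100 and annexin genes had 4 higher and 8 lower of 24, with S100A11 lower (-0.88).

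Markers of cell types foreign to the line were mostly dim. Of fibroblast and endothelial markers, 12 of 18 lay below the median level in both groups, and 1 was higher and 1 lower. Of nervous system, muscle and liver markers, 13 of 28 lay below it, 3 were higher and 5 lower, among them SNAP25, a protein of synaptic vesicle fusion, which fell by 1.71.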
